A study of Mus musculus with 4 samples.

Results

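*Asns*, *Psat1*, *Phgdh*, *Psph*, *Shmt2*, *Mthfd2*, *Slc7a11*, *Slc3a2*, *Slc7a5* and *Slc7a1* are 10 genes of amino acid synthesis and transport that are known targets of the transcription factor ATF4. They were chosen by name with earlier results of these data known, and the rule itself uses no measured value. Probes of the array were assigned to them through the mouse RefSeq symbol of the probe's transcript accession, which found 14 probes for the 10 genes among 20133 genes with a named probe. *Psat1*, *Phgdh*, *Psph* and *Slc7a5* had 2 probes each. The genes fall into 4 enzymes of asparagine and serine synthesis, 2 mitochondrial enzymes of folate-bound one-carbon units and 4 amino acid transporters or subunits.

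J774 cells, a mouse monocyte-macrophage line, were cultured for 4 hours in RPMI medium with 10% FBS and antibiotics that held a proteasome inhibitor at 1 μM or the solvent DMSO. The groups were DMSO, MG132, epoxomicin and ONX0914, with 1 culture and 1 single-color Agilent array in each, and all arrays lay on 1 slide. MG132 is a peptide aldehyde. Epoxomicin and ONX0914 are peptide epoxyketones, and ONX0914 is described in the Methods as an inhibitor of the β5 and β5i subunits. The title of the ONX0914 array reads ONX-5 and its treatment field ONX-0912. It was assigned to ONX0914 because the protocol and the Methods name that compound. The labels of the array do not settle this. Between 60.3% and 63.1% of the spots of an array were well above background, and no spot was saturated. All 7 macrophage markers with a named probe were well above background on every array, among them *Csf1r* and *Adgre1*. *Cd68* had no named probe. Of the markers of other cells, the B-cell genes *Cd79a* and *Ms4a1* were not well above background on any array, nor were the T-cell genes *Cd3d* and *Cd8a*, whereas the T-cell genes *Cd4* and *Cd3e* were on all 4. *Krt8*, an epithelial keratin, was not well above background with DMSO or ONX0914 and had a signal of 37.8 after MG132 and 121 after epoxomicin. The summed signal of the 4 epithelial markers was 21.3, 64.5, 169 and 27.8 on the DMSO, MG132, epoxomicin and ONX0914 arrays, with *Epcam* and *Cdh1* not well above background on any. Of 3 fibroblast markers, *Col1a2* was well above background on all 4 arrays, with signals between 61.2 and 85.6, *Pdgfra* on 2 arrays and *Col1a1* on none. The part of these transcripts in the results below was not tested.

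When a cell lacks amino acids or accumulates misfolded protein, kinases phosphorylate the translation factor eIF2α. Most protein synthesis then slows while the mRNA of *Atf4* is translated more. ATF4 protein pairs with a C/EBP factor and binds composite elements in the promoters of genes that make, import or charge amino acids. In macrophages these genes serve protein synthesis and, through imported cystine, the making of glutathione.

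To show what such an element looks like in these genes, promoters of RefSeq (GRCm38.p6), 250 bases before to 50 bases after the start, were searched for TGATGNAA on both strands, the letters of the C/EBP-ATF response element. The letters were found in 1304 of 32851 promoters (3.97%), which belong to 1219 of 27025 genes (4.51%). Among the 10 genes, 9 had a promoter in the table, with 11 promoters in all, and 2 genes, *Asns* and *Slc7a11*, held a match. *Slc7a5* was not in the table. The promoter of *Slc7a11* (chr3:50443564-50443863, minus strand) held the letters on both strands, with first bases at -66 and -47 from the start. That of *Asns* (chr6:7693160-7693459, minus strand) held them once, at -23. The promoter of *Mthfd2* (chr6:83317555-83317854, minus strand) is shown beside them because *Mthfd2* was also over 2-fold higher with every inhibitor and has no match in this window. Each is written 5′ to 3′ on the strand of the gene, with matches on either strand in capitals.

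Asns: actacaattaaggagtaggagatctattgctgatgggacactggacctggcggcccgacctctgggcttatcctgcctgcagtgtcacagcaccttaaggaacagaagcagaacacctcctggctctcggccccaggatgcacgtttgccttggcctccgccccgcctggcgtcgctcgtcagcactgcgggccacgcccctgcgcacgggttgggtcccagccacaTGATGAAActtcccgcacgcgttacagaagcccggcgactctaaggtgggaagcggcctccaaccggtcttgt

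Slc7a11: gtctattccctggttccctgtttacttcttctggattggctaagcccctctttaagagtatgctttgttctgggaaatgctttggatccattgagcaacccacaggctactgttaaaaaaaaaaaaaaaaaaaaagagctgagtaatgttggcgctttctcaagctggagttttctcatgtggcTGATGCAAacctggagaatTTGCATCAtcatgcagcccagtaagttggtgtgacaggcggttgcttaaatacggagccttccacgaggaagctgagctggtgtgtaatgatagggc

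Mthfd2: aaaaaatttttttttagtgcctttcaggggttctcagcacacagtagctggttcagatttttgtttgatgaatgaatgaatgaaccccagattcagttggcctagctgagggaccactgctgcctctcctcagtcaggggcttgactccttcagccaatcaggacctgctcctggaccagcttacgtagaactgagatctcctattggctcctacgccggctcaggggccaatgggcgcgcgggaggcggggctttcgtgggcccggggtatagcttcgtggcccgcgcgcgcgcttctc

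A match describes the letters only, and its absence says only that the letters are not in this window. The antioxidant response element core, TGACNNNGC, was searched on both strands in the same way, because *Slc7a11* is also a known target of Nrf2. Its letters were in 4071 of the promoters (12.4%) and in those of *Asns*, *Phgdh*, *Psph* and *Slc7a1*, but not in the window of *Slc7a11*. No match of one motif overlapped a match of the other in these genes.

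All 10 genes were well above background on all 4 arrays. Arrays were compared by the log2 of the processed signal, less the 75th percentile of its array. A difference of 2-fold, or 1 in log2 units, was the size needed for a gene to be called higher or lower. There is 1 array per condition, so no difference has a replicate check and no test was made. The error given after a log2 difference is the median SD between spots of one probe, combined over both arrays. Of 399 probes printed 10 times, those well above background were used, 252 to 259 per array. The SD was taken from the probes in the same class of signal, under 100, 100 to 1000 or over 1000. It does not hold the spread between cultures. In RNA of a whole culture, a change in the number of cells that express a gene and a change in RNA per cell cannot be told apart.

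With MG132, 6 of the 10 genes were at least 2-fold higher than with DMSO, namely *Asns*, *Mthfd2*, *Slc7a11*, *Slc3a2*, *Slc7a5* and *Slc7a1*. Over all genes, 7.13% of 13990 were. With epoxomicin the same 6 genes were at least 2-fold higher, against 8.3% of 14045 genes. With ONX0914, 4 genes were, *Asns*, *Mthfd2*, *Slc7a11* and *Slc7a5*, against 3.23% of 13981 genes. These 4 genes were thus at least 2-fold higher with all 3 inhibitors, which held for 1.98% of 13748 genes. None of the 10 genes was 2-fold lower, against 3.6%, 4.44% and 1.39% of all genes after MG132, epoxomicin and ONX0914. The median log2 difference of the 10 genes was 1.23 after MG132, 1.17 after epoxomicin and 0.88 after ONX0914, and that of all genes was -0.02, -0.04 and -0.01. The 3 comparisons share the DMSO array, so they are not independent of each other.

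**Figure D1:**
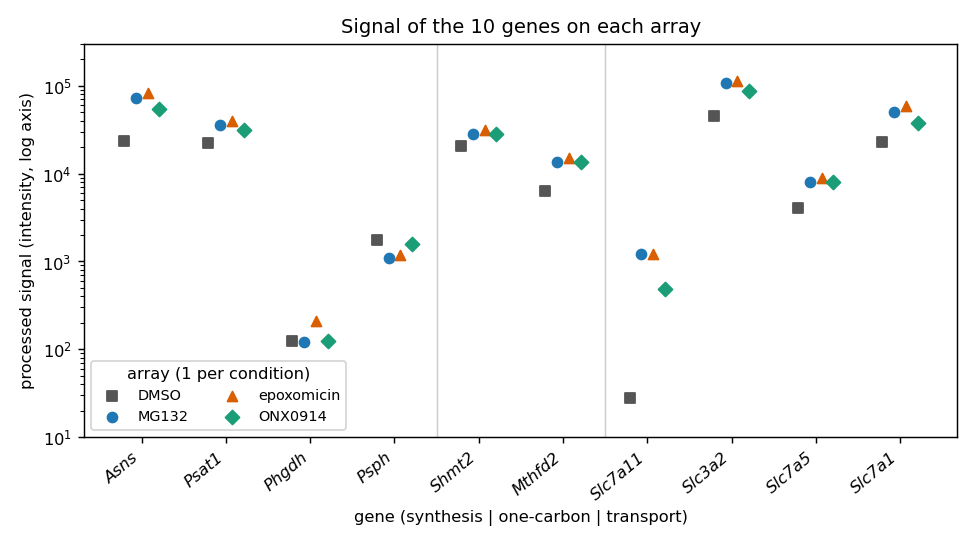
Processed signal (intensity, log axis) of the 10 genes on the 4 arrays, 1 point per array. *Slc7a11* is lowest on the DMSO array, at 27.7, and reaches 1206, 1231 and 491 with the inhibitors, while *Psph* is highest with DMSO. Heights of different genes come from different probes and are not to be set against each other.

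**Figure D2:**
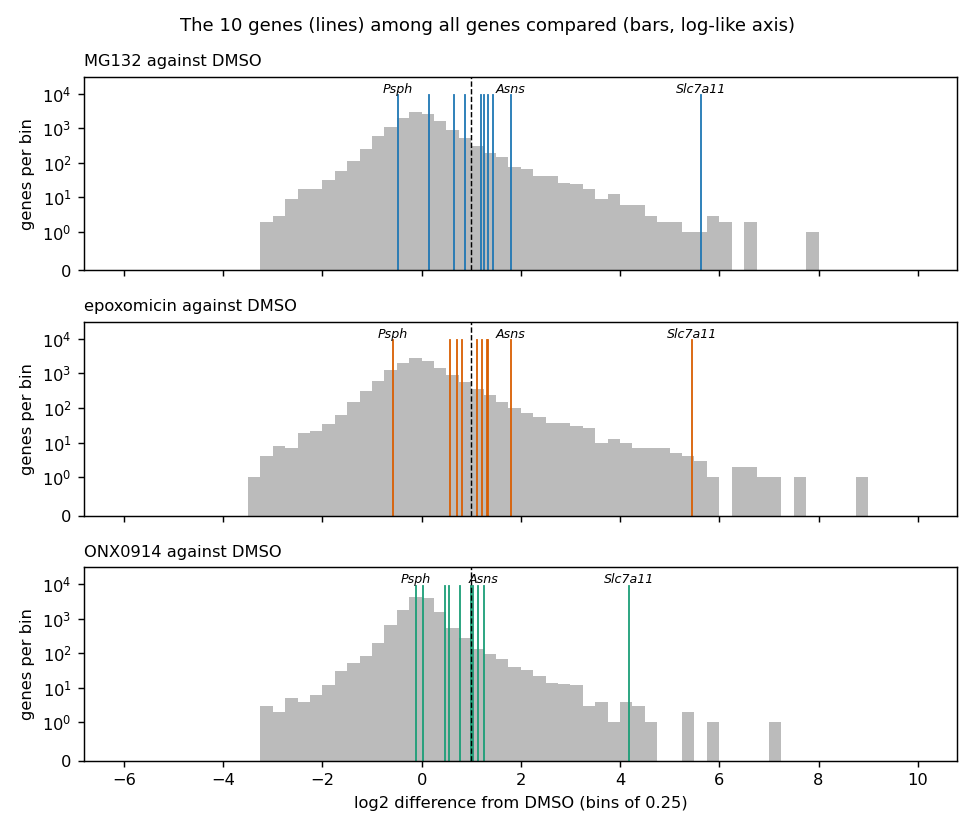
Log2 difference from DMSO of the 10 genes (colored lines) within the distribution of all genes compared (gray bars, genes per bin of 0.25, log-like axis) for each inhibitor. The dashed line marks 2-fold, and 9 of the 10 genes lie above 0 in each panel.

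Asparagine and serine synthesis were not alike. *Asns* encodes asparagine synthetase, which makes asparagine from aspartate and glutamine. Its signal was 23595 with DMSO, 71938 after MG132, 83728 after epoxomicin and 54742 after ONX0914. All inhibitor arrays were above DMSO, by 1.79 ± 0.07 after MG132, 1.80 ± 0.07 after epoxomicin and 1.25 ± 0.07 after ONX0914 on the log2 scale, which are 3.47-, 3.49- and 2.38-fold. *Asns* ranked 256, 308 and 195 among the 12730 genes measured on all arrays, from the largest increase down.

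*Phgdh*, *Psat1* and *Psph* encode the enzymes that make serine from 3-phosphoglycerate, in that order. *Psat1*, the aminotransferase, had signals of 22339 with DMSO, 35995 after MG132, 40082 after epoxomicin and 31836 after ONX0914. The differences from DMSO were 0.87 ± 0.07, 0.82 ± 0.07 and 0.55 ± 0.07, so every inhibitor array was above DMSO by more than the spread between spots and by less than 2-fold. Its other probe gave 1.05, 0.78 and 0.74, so that *Psat1* after MG132 passed 2-fold by that probe. It also did in 2 of the 15 settings, with normexp and with *Hprt* as the only scaling (1.05 and 1.08).

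*Phgdh*, the dehydrogenase that starts the pathway, had signals of 124 with DMSO, 120 after MG132, 209 after epoxomicin and 124 after ONX0914. Only the epoxomicin array stood apart. The difference from DMSO was 0.72 ± 0.09 after epoxomicin, and after MG132 (0.14 ± 0.09) and ONX0914 (0.03 ± 0.10) it was under 2 spreads. The other probe of *Phgdh* gave 0.24, 0.73 and 0.12 for MG132, epoxomicin and ONX0914. The sign for *Phgdh* changed with the processing. Normexp background correction, with an offset of 50 added to every spot, gave -0.75, -0.42 and -0.81. The same correction fitted without outlier spots gave 0.08, 0.41 and 0.02. Without scaling it was -0.05 after MG132 and -0.01 after ONX0914.

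*Psph*, the phosphatase that completes the pathway, had signals of 1751 with DMSO, 1103 after MG132, 1191 after epoxomicin and 1570 after ONX0914. It was the only one of the 10 genes with its highest scaled level on the DMSO array. The differences were -0.48 ± 0.07 after MG132 and -0.58 ± 0.07 after epoxomicin, and -0.12 ± 0.07 after ONX0914, which is under 2 spreads. The other probe gave -0.61, -0.73 and 0.01. The 3 serine enzymes thus had no common direction. Their median of 0.14, 0.72 and 0.03 after MG132, epoxomicin and ONX0914 was each time the value of *Phgdh*, whose sign changed with the processing. *Psat1* lay above it and *Psph* below. None of the 3 reached 2-fold by the probe that stood for it.

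*Shmt2* and *Mthfd2* encode mitochondrial enzymes that pass the one-carbon unit of serine to folate and oxidize it. *Shmt2*, the hydroxymethyltransferase, had signals of 20631 with DMSO, 28653 after MG132, 31169 after epoxomicin and 28042 after ONX0914. Its differences of 0.66 ± 0.07, 0.57 ± 0.07 and 0.48 ± 0.07 were larger than the spread between spots and below 2-fold. *Mthfd2*, the dehydrogenase and cyclohydrolase, had signals of 6421, 13545, 15263 and 13697 with DMSO, MG132, epoxomicin and ONX0914. The inhibitor arrays lay close together and all above DMSO. The differences were 1.26 ± 0.07, 1.22 ± 0.07 and 1.13 ± 0.07, or 2.40-, 2.34- and 2.19-fold.

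The median of the 4 transporter genes was 1.39 after MG132, 1.33 after epoxomicin and 1.01 after ONX0914, beside 0.51, 0.77 and 0.29 for the 4 synthesis enzymes and 0.96, 0.90 and 0.80 for the 2 one-carbon enzymes. Apart from *Slc7a11*, each transporter gene had a smaller difference than *Asns* with every inhibitor. *Slc7a11* encodes xCT, the subunit that exchanges cystine for glutamate. Its signal was 27.7 with DMSO, 1206 after MG132, 1231 after epoxomicin and 491 after ONX0914. The DMSO array stood far below the others. The difference was 5.63 ± 0.19 after MG132, 5.45 ± 0.19 after epoxomicin and 4.19 ± 0.19 after ONX0914, or 49.6-, 43.7- and 18.2-fold. It ranked 6, 9 and 8 of the 12730 genes. The size rests on the dim DMSO spot, whose median pixel brightness was 59 over a local background of 22. Normexp background correction gave 2.45, 2.23 and 1.09, and 3.85, 3.62 and 2.48 when outlier spots were left out of its fit. Both forms add an offset of 50 to every spot, which is large beside this spot, and its part in the smaller values was not tested. *Slc7a11* remained at least 2-fold higher in all 15 settings with each inhibitor.

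*Slc3a2* encodes the heavy chain (4F2hc, CD98) that carries xCT and LAT1 to the cell surface. Its signals were 44893 with DMSO, 107042 after MG132, 114951 after epoxomicin and 86935 after ONX0914. Its differences were 1.44 ± 0.07 after MG132, 1.33 ± 0.07 after epoxomicin and 0.99 ± 0.07 after ONX0914, the last just below 2-fold. *Slc7a5* encodes LAT1, which imports leucine and other large neutral amino acids. Its signals were 4030, 8130, 8884 and 8015 with DMSO, MG132, epoxomicin and ONX0914, and its differences 1.20 ± 0.07, 1.12 ± 0.07 and 1.03 ± 0.07. A second *Slc7a5* probe, with signals between 239 and 311, gave 0.51, 0.25 and 0.41, so both probes were above DMSO with every inhibitor but disagreed on the size. With the mean over both probes *Slc7a5* was below 2-fold on all inhibitor arrays.

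*Slc7a1* encodes CAT1, which imports arginine and lysine. Its signals were 22808 with DMSO, 50918 after MG132, 58227 after epoxomicin and 37941 after ONX0914. The MG132 and epoxomicin arrays were above 2-fold, with differences of 1.35 ± 0.07 and 1.33 ± 0.07, and the ONX0914 array was not (0.77 ± 0.07).

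**Figure D3:**
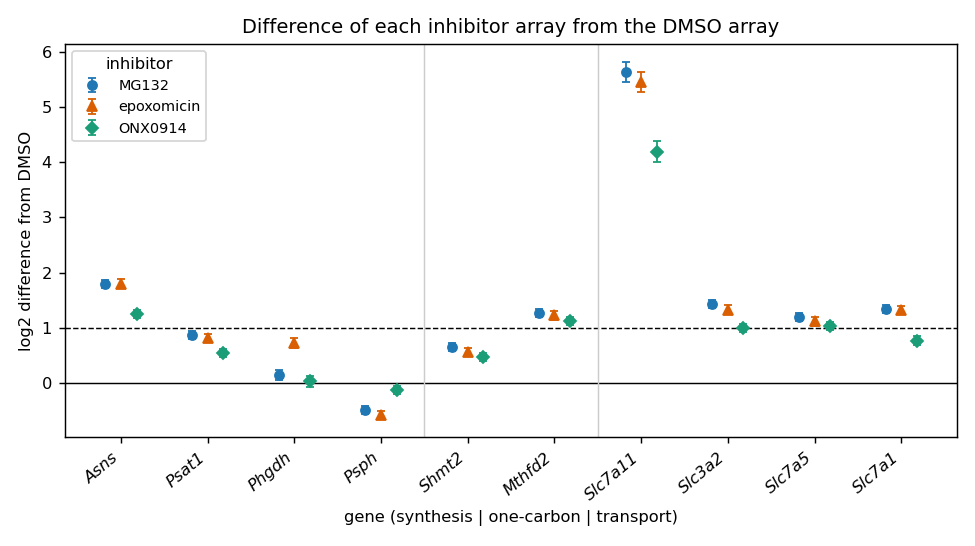
Log2 difference of each inhibitor array from the DMSO array for the 10 genes, with bars of 1 SD between spots of a probe combined over both arrays (1 array per condition, so no spread between cultures). The dashed line marks 2-fold. *Slc7a11* stands apart at 4.19 to 5.63, and *Psph* lies below 0 with every inhibitor.

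The inhibitors were compared with each other at 1 μM and 4 hours, in 3 pairs over the 10 genes. Epoxomicin and MG132 differed little, in these genes and over all genes. The median difference of epoxomicin from MG132 was -0.07. Over all genes it was 0.00, with quartiles of -0.12 and 0.12. Of the 10 genes, 8 differed by less than 2 spreads between spots, and the share of all genes was not counted. The exceptions were *Phgdh*, at 0.58 ± 0.09, and *Slc7a11*, at -0.18 ± 0.07. Without scaling *Phgdh* had 0.79 and *Slc7a11* 0.03, so the exception of *Slc7a11* depends on the scaling. *Phgdh* ranked 140 of 12730 genes from the largest excess after epoxomicin down. None of the 10 reached 2-fold, against 0.785% of genes higher and 0.719% lower.

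ONX0914 gave the smallest of the 3 values for 9 of the 10 genes, all but *Psph*. The share of all genes with this order was not counted. Differences from DMSO were also smaller over all genes after ONX0914, with quartiles of -0.20 and 0.19. After MG132 the quartiles were -0.34 and 0.33, and after epoxomicin -0.36 and 0.34. The median difference of ONX0914 over the 10 genes was -0.25 from MG132 and -0.31 from epoxomicin. Over all genes it was 0.02 and 0.05. *Slc7a11* was the only one of the 10 that was 2-fold lower, by 2.72-fold against MG132 (-1.44 ± 0.08) and 2.40-fold against epoxomicin (-1.26 ± 0.08), where 3.05% and 4.38% of genes were. *Phgdh* differed by -0.11 ± 0.09 from MG132 and by -0.69 ± 0.09 from epoxomicin, *Slc7a1* by -0.57 ± 0.07 and -0.56 ± 0.07, and *Asns* by -0.54 ± 0.07 and -0.55 ± 0.07. For *Mthfd2* both differences were under 2 spreads (-0.13 ± 0.07 and -0.09 ± 0.07). For *Shmt2* and *Slc7a5* this held against epoxomicin, at -0.09 ± 0.07 for each. *Psph* went the other way in sign, at 0.36 ± 0.07 and 0.46 ± 0.07. Its differences from DMSO were -0.48, -0.58 and -0.12 after MG132, epoxomicin and ONX0914, so ONX0914 lay nearest to DMSO here too. None of the 10 genes was 2-fold higher after ONX0914, against 1.07% of genes in the comparison to MG132 and 1.56% in that to epoxomicin. The number of genes with the smallest value under ONX0914 was 9 in most other settings, 8 with quantile normalization and with both summaries over a gene's probes, and 7 without scaling.

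Within the epoxyketones, ONX0914 differed from epoxomicin by more than 2 spreads for 7 genes. Against the aldehyde MG132 it did so for 8 genes, and epoxomicin did for 2. The share of all genes passing 2 spreads was not counted, so these counts cannot be set against other genes. Over all genes, the quartiles of ONX0914 were -0.26 and 0.30 from epoxomicin, and -0.23 and 0.25 from MG132. The spread between cultures treated with the same compound is unknown, and how many of the counted differences exceed it cannot be told.

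**Figure D4:**
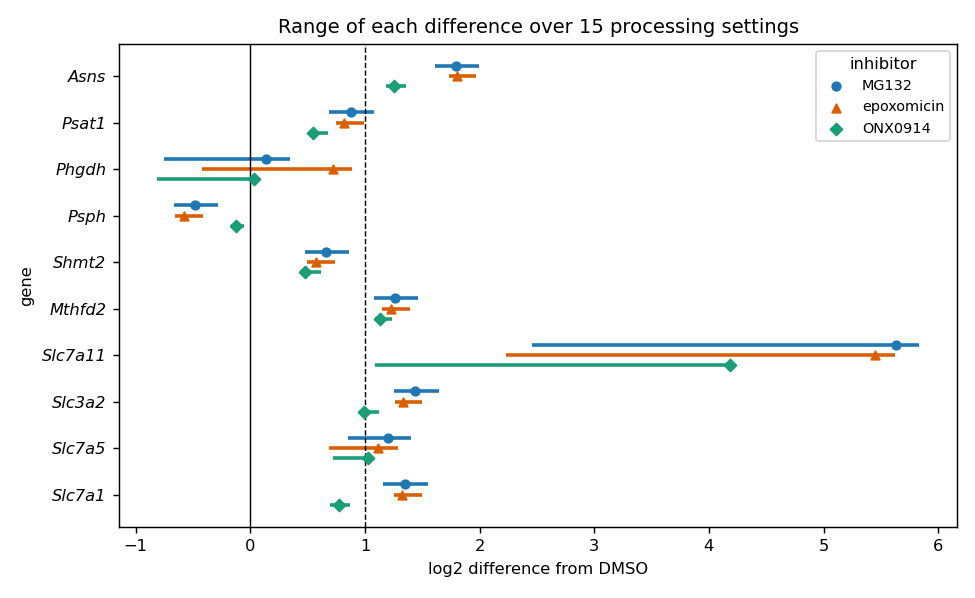
Lowest to highest log2 difference from DMSO over 15 processing settings (lines) and the value reported (points) for each gene and inhibitor. The dashed line marks 2-fold. *Slc7a11* has the widest range, *Phgdh* crosses 0, and *Asns* and *Mthfd2* stay above 2-fold.

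The transcripts around these genes were read from lists of the same pathways, without the 10 genes. The counts of each list stand beside 7.13%, 8.3% and 3.23% of all genes at least 2-fold higher after MG132, epoxomicin and ONX0914. For 2-fold lower the shares of all genes were 3.6%, 4.44% and 1.39%. ATF4 itself is controlled mainly by translation. Its mRNA had signals of 102412 with DMSO, 195971 after MG132, 220379 after epoxomicin and 241575 after ONX0914, which are differences of 1.12, 1.08 and 1.27. *Atf4* was thus not lower after ONX0914 than with the other inhibitors. *Ddit3*, the partner and target CHOP, was higher by 3.16, 2.76 and 3.16, and *Trib3*, a pseudokinase that restrains ATF4, by 3.47, 3.38 and 3.09. Of the integrated stress response list, 11 of 17 genes tested were at least 2-fold higher after MG132, 11 of 17 after epoxomicin and 9 of 18 after ONX0914, and none was 2-fold lower. *Atf3*, *Nupr1*, *Ddit4*, *Ppp1r15a* and *Gdf15* were higher with all 3 inhibitors, *Gdf15* by 5.91, 5.64 and 4.03. *Chac1* was not analysed here.

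Of other serine, glycine and one-carbon enzymes, 4 of 20 genes tested were at least 2-fold higher after MG132, 4 after epoxomicin and 2 after ONX0914, and the list's median was 0.00, -0.05 and 0.12. *Cth*, which makes cysteine from cystathionine, was higher by 2.46, 2.54 and 1.41. *Cbs*, the enzyme before it, had signals of 76.9 with DMSO, 356 after MG132, 693 after epoxomicin and 81.8 after ONX0914. Its differences of 2.40 and 3.15 after MG132 and epoxomicin stood beside 0.13 after ONX0914. With all inhibitors, 16 genes of the list, *Shmt1*, *Mthfd1l* and *Tyms* among them, were under 2-fold.

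Among enzymes of proline, aspartate, glutamine and branched-chain amino acids, 4 of 17 genes were at least 2-fold higher with each inhibitor, and the list's median was 0.01, -0.09 and 0.15. They were *Gpt2*, a mitochondrial alanine aminotransferase (2.02, 1.92 and 1.52), *Bcat1*, the cytosolic branched-chain aminotransferase (1.65, 1.45 and 1.04), *Aldh18a1*, which starts proline synthesis (1.52, 1.51 and 1.04), and *Pck2*, mitochondrial PEP carboxykinase (1.26, 1.25 and 1.06). After ONX0914 these values lay close to the threshold, apart from that of *Gpt2*, and 2 of the 4 genes were called with quantile normalization, with the percentile over detected probes and with either form of normexp.

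Of 36 other amino acid transporters, 28 were tested after MG132, and 3, 3 and 2 were at least 2-fold higher after MG132, epoxomicin and ONX0914. *Slc6a9*, the glycine transporter GlyT1, had signals of 1052 with DMSO, 10546 after MG132, 11197 after epoxomicin and 5507 after ONX0914 (3.51, 3.39 and 2.42). *Slc38a2*, the SNAT2 carrier of small neutral amino acids, had differences of 0.86, 1.24 and 1.07, below 2-fold after MG132. *Slc38a7*, a lysosomal glutamine carrier, had 1.13, 0.92 and 0.60 and passed 2-fold only after MG132. *Slc1a1*, a glutamate carrier, was not well above background with DMSO and was at least 2.15-fold higher after MG132 and at least 2.05-fold higher after epoxomicin. The list's median was 0.06, 0.02 and 0.06.

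Cystine taken up by xCT feeds glutathione synthesis. Of 11 genes of that list, 2, 2 and 1 were at least 2-fold higher after MG132, epoxomicin and ONX0914. *Gclm*, the modifier subunit of glutamate-cysteine ligase, was higher with all (1.77, 1.51 and 1.36), and *Ggct*, which acts in glutathione turnover, had 1.34, 1.68 and 0.28. Enzymes that break amino acids down lay mostly below DMSO after MG132 and epoxomicin. None of 18 was 2-fold higher, 15 were below 0 after MG132 and after epoxomicin and 10 after ONX0914, and the median was -0.41, -0.33 and -0.02. That median stayed below 0 in all 15 settings for MG132 and epoxomicin, and in 14 for ONX0914. *Mmut*, methylmalonyl-CoA mutase, was the only one 2-fold lower, after MG132 (-1.06), where other settings gave 0 to 5 such genes.

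In the list of amino acid sensing by mTORC1, each inhibitor array had 2 of 22 genes (9.09%) at 2-fold or more above DMSO and 1 below. *Sesn2*, a leucine sensor, was higher by 3.00, 3.06 and 2.52, and *Eif4ebp1*, the translation repressor 4E-BP1, by 1.42, 1.42 and 1.17. *Sesn1*, the paralog of *Sesn2*, was lower, with signals of 3427 with DMSO and 809, 964 and 1301 after MG132, epoxomicin and ONX0914 (-1.90, -1.86 and -1.36).

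**Figure D5:**
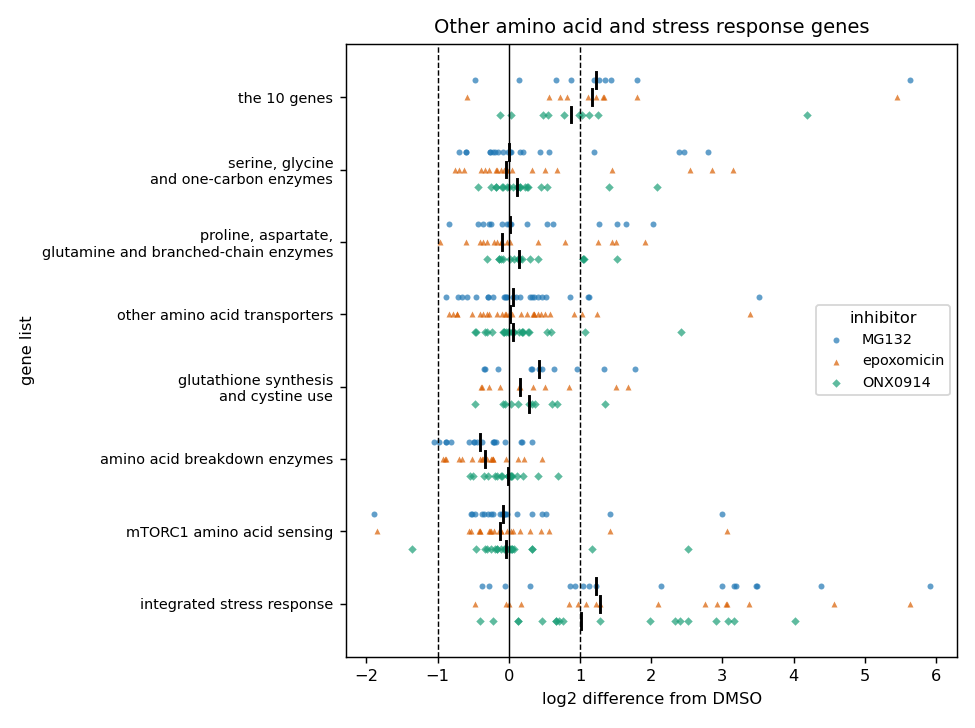
Log2 difference from DMSO of the 10 genes and of the genes of 7 other lists, 1 point per gene and inhibitor, with a black mark at each median. Dashed lines mark 2-fold in each direction. Medians lie near 0 for the serine, proline and transporter lists and at 1.02 to 1.28 for the integrated stress response.

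Among reference genes, *Hprt*, *Actb*, *Gapdh* and *Tbp* had small differences. With MG132, epoxomicin and ONX0914, *Hprt* had -0.20, -0.17 and -0.03, *Actb* -0.17, -0.29 and -0.14, *Gapdh* 0.06, -0.14 and -0.06, and *Tbp* -0.06, 0.04 and -0.15. Of these 12 values, only those of *Actb* after epoxomicin and *Tbp* after ONX0914 kept their sign in all settings. *Gusb*, another reference gene, was 2-fold lower after MG132 and epoxomicin (-1.48 and -1.36). Among macrophage markers, *Lyz2* was 2-fold lower after epoxomicin (-1.01).

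The 5 genes whose differences were nearest to the median of the 10 genes, by Euclidean distance over the 3 log2 differences among 12720 other genes, were *Gm5797*, *Oas3*, *Usp3*, *Col5a3* and *Lgals8*. Their distances were between 0.05 and 0.09. *Oas3* had 1.25, 1.23 and 0.88, and *Usp3* 1.23, 1.25 and 0.87, after MG132, epoxomicin and ONX0914. The 3 differences share the DMSO array, and the distance rests on 4 arrays.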

How the data were processed

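RNA of J774 cells on 4 single-color arrays was analysed. Per the file headers, the authors deposited the processed signal intensity of each spot from Feature Extraction 10.7.1.1, background-subtracted within the array and not scaled between arrays. The headers describe a mouse design, whereas the Methods name a human one. A second file deposited by the authors, from GeneSpring, gives log2 values for 39483 entries and was used as an alternative. Its column medians were -0.05, 0.02, -0.02 and 0.01 for DMSO, MG132, epoxomicin and ONX0914. It is centered on each probe, and its direction was checked against the scanner values (r between 0.9997 and 0.9999 over 22418 probes).

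Control spots and outlier spots were left out, log2 was taken and the array's 75th percentile subtracted. Of 39429 probes, 26565 (67.4%) were named through RefSeq accessions (GRCm38.p6). The probe with the highest mean stood for a gene. A gene was tested when well above background on at least 1 of both arrays, and a bound replaced a signal that was not, from the higher of the array's lowest signal well above background and the probe's own. The text names the 10 genes, genes of each list at least 2-fold higher with all inhibitors or 2-fold changed in one, the 5 nearest profiles, 4 reference genes, and *Atf4*, *Ddit3*, *Trib3* and *Chac1*. Some genes of the lists that meet this rule are counted and not reported here by name. The genes and lists were chosen with earlier results of these data known. Calculations were tested on simulated data. Python 3.11.15 (numpy 2.4.6, pandas 2.3.3, scipy 1.17.1, matplotlib 3.10.9) and limma 3.58.1 in R 4.3.3 were used. With 1 array per condition, the number of arrays limits the precision.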

Additional observations from a re-analysis of the deposited data

How the results depend on the processing

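Each difference was recomputed in 15 settings, 2 of them chosen after seeing the data (the percentile over probes, and with outlier spots). Over the settings the median of the 10 genes lay between 1.04 and 1.43 with MG132, 1.01 and 1.34 with epoxomicin and 0.75 and 0.96 with ONX0914, and 5 to 7, 5 to 6 and 3 to 5 genes were at least 2-fold higher. The median with MG132 moved by more than 0.0870 (the largest median SD between spots times the square root of 2) with a shift to the median (1.13), without scaling (1.04), with *Hprt* as the only scaling (1.43) and with the mean or the median over a gene's probes (1.11 in both). With epoxomicin it moved with *Hprt* (1.34) and the mean or median over probes (1.01 in both), and with ONX0914 with the mean or median over probes (0.75 in both). At a 4-fold threshold the count was 1 with each inhibitor. The cause was not tested. Scaling by *Hprt* put the median of all genes at 0.19, 0.13 and 0.02 with MG132, epoxomicin and ONX0914, the shift to the median at -0.12, -0.11 and -0.01, no scaling at -0.20, -0.02 and -0.04, and normexp at -0.27, -0.30 and -0.17. Of the calls at 2-fold, *Slc7a5* was called in 13, 13 and 9 of the 15 settings and *Slc3a2* with ONX0914 in 2. Of 588 counts of other lists under an alternative, 548 stayed within 1.5 times and 40 did not. Motif matches of TGATGNAA remained in 2 genes in the 250 bases before the start. No paired analysis was possible because each condition has 1 array. A dim probe such as that of *Slc7a11* with DMSO has a spread between spots of 0.18, against 0.06 over 1000, and its fold is the least certain.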
